A study of Mus musculus with 6 samples.

Results

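Accessible chromatin was examined at the transfer RNA (tRNA) genes of mouse embryonic stem cells. The members are the ATAC-seq peaks on chromosomes 1 to 19 that lie within 2 kb of a gene that RefSeq classes as tRNA. They number 233 of 75108 peaks on these chromosomes, and of 77629 in the whole list. Of the 233, 47 lay within 1 kb of an annotated end of a protein-coding gene and 186 lay away from such ends, 14 of these inside the body of one. The other peaks on these chromosomes were split in nearly the same proportion, with 15230 at such ends and 59645 away from them. How many of the other peaks lay inside a gene body was not counted. ATAC-seq uses the transposase Tn5 to cut and tag open DNA, so that a peak marks a stretch where many cuts fell.

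The library came from untreated E14 embryonic stem cells grown in 2i/LIF, a medium that holds the cells in a naive state with inhibitors of MEK and GSK3. Their genotype is a NSD1-dTAG knockin, in which the histone methyltransferase NSD1 carries a tag that lets the compound dTAG-13 bring about its degradation, and this library received no dTAG-13. The labels list 6 samples in 6 groups of 1, and the other 5, which are stem cells after 1, 6 or 24 h of 500 nM dTAG-13 and day 6 embryoid bodies with or without it, were not analysed here. The sources used here do not say whether the knockin line is 1 clone. With 1 library there are no replicates and no test between samples, so the intervals below are 95% intervals that cover counting error only. The pluripotency genes Pou5f1, Nanog, Sox2, Klf4 and Zfp42 each had a peak at a gene end, with 58 to 152 reads or fragments at the summit. Of the fibroblast genes, Col3a1 had none, and those of Col1a1, Thy1 and Col1a2 reached 38, 22 and 7. The authors' ratio of summit depth to local background did not separate these genes from the pluripotency genes. It was 11.97, 7.87 and 3.48 at Col1a1, Thy1 and Col1a2, and ran from 2.77 at Nanog to 8.99 at Klf4.

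Transfer RNAs carry amino acids to the ribosome and read the codon through their anticodon. Their genes are short and are transcribed by RNA polymerase III from a promoter inside the gene, made of an A box and a B box. The factor TFIIIC binds these boxes and places TFIIIB just upstream of the gene, and TFIIIB then recruits the polymerase. Mammalian genomes hold many near-identical copies of each tRNA gene, some alone and some in clusters.

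The deposited files give no tRNA sequences, but 4 tRNA genes lie whole inside a RefSeq promoter window, the stretch from 250 bases before to 50 after another gene's start (build GRCm38.p6). They are shown, 5′ to 3′, because they place the internal promoter, and so the elements that TFIIIC binds, beside the peak that overlapped each gene. The capitals mark, in order, the A box, the anticodon and the B box.
n-TTagt9, threonine, chr7:35234770-35234843, minus strand: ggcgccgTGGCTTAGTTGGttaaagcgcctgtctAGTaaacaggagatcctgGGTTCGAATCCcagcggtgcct
n-TRtcg5, arginine, chr7:79466419-79466491, plus strand: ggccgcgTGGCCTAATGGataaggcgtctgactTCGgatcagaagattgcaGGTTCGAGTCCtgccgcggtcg
n-TAagc16, alanine, chr13:21222586-21222657, plus strand: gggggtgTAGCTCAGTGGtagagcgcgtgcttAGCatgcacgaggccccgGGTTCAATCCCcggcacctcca
n-TVcac9, valine, chr13:23446142-23446214, minus strand: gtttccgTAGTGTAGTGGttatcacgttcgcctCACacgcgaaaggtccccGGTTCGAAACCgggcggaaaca

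In all 4 sequences the A box began at base 8, and 32 or 33 bases separated it from the B box. The B box was searched as GGTTC, any base, A, any 2 bases and CC. The A box was searched as T, any base, G, any 3 bases, A, any 2 to 4 bases and GG, and only near the start of the sequence. The gene table gives no strand, so the strand shown is the one on which both boxes matched. A place of the A box near the start is therefore part of the search rule. The peak over n-TRtcg5 had a summit pileup of 163 (exact Poisson interval 139 to 190) and a fold enrichment of 12.8, and its summit lay 106 bp from the gene. Pileup is the depth at the summit in reads or fragments, and fold is the authors' ratio of that pileup to the local background. This gene lies inside Polg, the mitochondrial DNA polymerase gene, over one of its promoter windows, though over 1 kb from its annotated ends. Over n-TVcac9 the pileup was 100 (81.4 to 122), over n-TAagc16 it was 62 (47.5 to 79.5), and over n-TTagt9 it was 54 (40.6 to 70.5). The summits lay 234, 18 and 11 bp from these genes, so none of these 4 summits fell inside the gene shown.

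The B box motif is not particular to tRNA genes, and it was looked for on both strands of all 31365 promoter windows of 300 bases. It was found in 258 of them (0.823%), of which 49.2% overlapped a peak, against 47.5% of all windows. Of the 251 windows that held the motif but overlapped no tRNA gene, 47.8% overlapped a peak. By contrast, all 10 windows that overlapped a tRNA gene overlapped a peak, 7 of them with the motif (exact interval for 10 of 10, 69.2 to 100%). A match describes the letters alone.

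RefSeq placed 386 tRNA genes on chromosomes 1 to 19, for 20 amino acids and 48 anticodons, with a median length of 72 bp. A peak lay within 2 kb of 290 of them (75.1%, exact interval 70.5 to 79.4%), and a peak overlapped 263 (68.1%, 63.2 to 72.8%). Of RefSeq genes of all kinds, 55.7% had a peak within 2 kb and 49% were overlapped by one, but most of those genes are far longer than a tRNA gene. Small nucleolar RNA, small nuclear RNA and microRNA genes, which are short like tRNA genes, give a closer background. Of these 3336 genes together, 25.2% had a peak within 2 kb and 7.46% were overlapped. A tRNA-sized stretch placed at any position of the chromosomes would lie within 2 kb of a peak in 13.2% of positions.

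The share for tRNA genes exceeded that for microRNA genes by 38.5 percentage points (Newcombe interval 33.1 to 43.4), that for small nucleolar RNA genes by 54.8 points (49.7 to 59.4) and that for small nuclear RNA genes by 57.1 points (51.8 to 61.7). Ribosomal RNA genes of the table, 60 in number, had a peak in 83.3%. Their interval of the difference from tRNA genes, with tRNA genes lower, runs from -16.8 to 3.86 points. By this measure these 2 kinds of gene were thus not told apart. In overlap of the gene itself tRNA genes were higher, at 68.1 against 53.3%, a difference of 14.8 points (1.84 to 28.0). Genes of a cluster can share 1 peak and are not independent, which these intervals do not take into account.

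Peaks at protein-coding gene ends accounted for part of the overlap. Without them, 239 tRNA genes kept a peak within 2 kb (61.9%, 56.9 to 66.8%), against 39.2% of all RefSeq genes, 16.1% of the 3 small RNA kinds and 10.5% of positions. The gap to microRNA genes was then 39.3 points (33.7 to 44.5), beside 38.5 with those peaks. The gap to ribosomal RNA genes was -21.4 points (-30.3 to -9.12), with tRNA genes lower. In overlap of the gene itself the shares were then 54.4% for tRNA genes and 53.3% for ribosomal RNA genes. For 51 tRNA genes the peaks within 2 kb were all at a protein-coding gene end. Of the 47 gene-end peaks, 37 also overlapped a tRNA gene itself.

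The summits of the peaks were close to the tRNA genes. Among the 239 genes with a peak away from gene ends, the median distance from the gene to the nearest peak's summit was 90 bp (order-statistic interval 66 to 152 bp), against 632 bp for small nuclear RNA, 835 bp for microRNA and 1041 bp for small nucleolar RNA genes. The summit fell inside the gene in 52 of the 239 (21.8%) and within 1 to 150 bp of it in 83 (34.7%). Inside or within 150 bp it thus lay in 56.5% (49.9 to 62.9%) of tRNA genes, and in 27.7%, 14.4% and 19.3% of the small nuclear RNA, microRNA and small nucleolar RNA genes that had such a peak. A summit more than 1000 bp away was found for 24 tRNA genes (10.0%), against 39.2 to 50.7% for these 3 kinds. Close summits were not particular to tRNA genes. Among the 50 ribosomal RNA genes with such a peak the median distance was 0 bp, with the summit inside the gene in 58%, inside or within 150 bp in 62.0%, and more than 1000 bp away in 36%. The gene table gives no strand, so the side of the gene on which a summit lay was not determined.

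**Figure D1:**
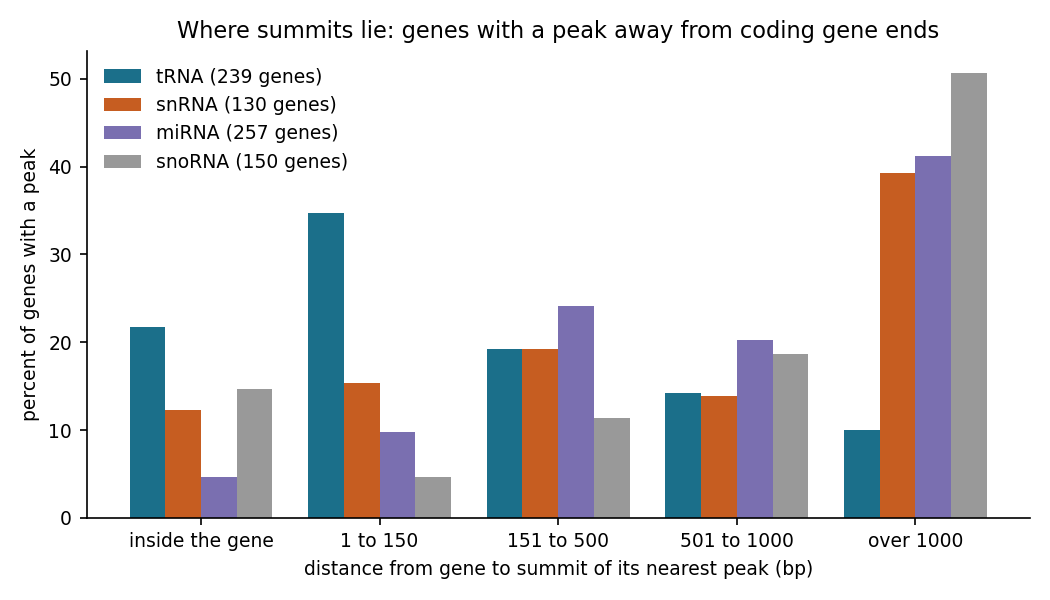
Percent of genes with a peak away from protein-coding gene ends, by distance (bp) from the gene to the summit of its nearest peak, for tRNA, small nuclear (snRNA), micro (miRNA) and small nucleolar (snoRNA) RNA genes. tRNA genes are most frequent at 1 to 150 bp (34.7%) and least frequent over 1000 bp (10.0%), where the other kinds shown hold 39.2 to 50.7%; ribosomal RNA genes are not drawn.

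The 3 peaks just inside the limit of 2 kb lay 1708, 1776 and 1914 bp from n-TCgca55, n-TEctc13 and n-TGacc1 and had pileups of 33, 29 and 70. The 3 just outside lay 2048, 2056 and 2157 bp from n-TQttg2, n-TTtgt2 and n-TIaat4, with pileups of 11, 38 and 99. Both sets thus hold low and high peaks.

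The 186 members away from gene ends were deep peaks on a high local background. Their median pileup was 54 (48 to 59), with quartiles of 36 and 80.8 and a range of 8 to 173. The 59645 other peaks away from gene ends had a median of 20, which gives a ratio of medians of 2.70. Of the tRNA members, 82 (44.1%) reached a pileup of 59, which 10.2% of the other peaks reached, and 10 (5.38%) stayed under 20. The level of 59 was set from the other peaks themselves, so their share of 10.2% was fixed by that choice. The median local background was 6.60 at the members and 1.78 at the other peaks, a ratio of 3.70. The median width was 661 bp (596 to 767), 1.53 times that of the other peaks. Members away from gene ends were not all away from promoters. Of the 186, 3 lay over a promoter window of a protein-coding gene and 14 over one of a long noncoding RNA gene. Without peaks over promoter windows the members' median pileup was 51 (46 to 56) and their median fold 6.46.

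In fold enrichment the members were not above the other peaks beyond the intervals. Their median fold was 6.87 (6.25 to 7.63) and that of the other peaks 6.52 (6.52 to 6.55), so the intervals overlap. With only peaks of a pileup of 20 or more on both sides, the members' median fold was lower, 7.02 (6.31 to 7.98) against 9.48. The ratio of median folds then went from 1.05 to 0.741 and that of median pileups from 2.70 to 1.62. The 47 members at gene ends had a median pileup of 84 (72 to 105) and a median fold of 8.68, against 54 (53 to 55) and 9.89 at the 15230 other gene-end peaks. Both at gene ends and away from them, peaks at tRNA genes were thus deeper than the other peaks without a higher fold beyond the intervals.

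**Figure D2:**
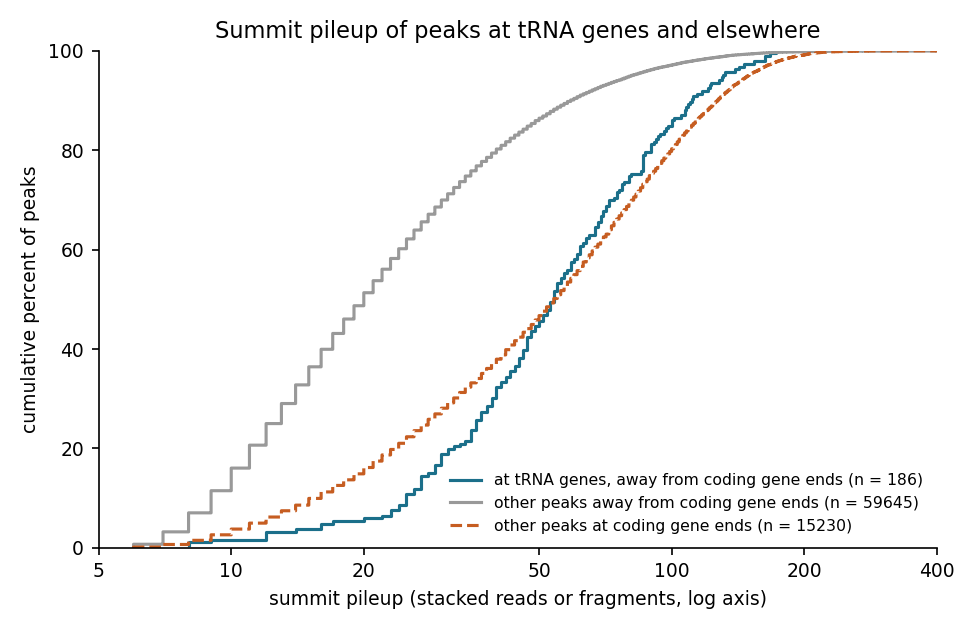
Cumulative percent of peaks against summit pileup (reads or fragments, log axis) for the 186 members away from protein-coding gene ends, the other peaks away from gene ends and the other peaks at gene ends; the tallest of the other peaks run off the axis. The members (median 54) lie to the right of the other peaks away from gene ends (median 20) and cross the curve of the gene-end peaks (median 54).

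Members that covered a tRNA gene were deeper than those that lay beside one. The 156 members away from gene ends that overlapped a tRNA gene had a median pileup of 59 (53 to 67) and a median fold of 7.22. The other 30 had 29 (23 to 36) and 5.0. The median width was 754.5 bp (645 to 891) in the 156 and 372.5 bp (268 to 551) in the 30. A wider peak is also more likely to reach over a gene by construction. By the number of tRNA genes under 1 peak, the median pileup was 54.5 (47 to 62) in 118 peaks over 1 gene, 67 (53 to 87) in 27 over 2, and 122 (71 to 132) in 11 over 3 or more. The median width ran from 622.5 to 1037 and 1444 bp, and a wider peak can hold more genes by construction. The fold did not follow, at 7.37, 6.97 and 6.97, while the local background went from 6.54 to 9.07 and 13.7. Whether signal of the peak itself or of its neighbours enters that background was not tested. The most tRNA genes that 1 peak overlapped was 4.

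The deepest members away from gene ends were at genes of several amino acids. A peak at chromosome 13, 23400791 to 23402352, over n-TAagc12 (alanine) and n-TVaac2 (valine), reached a pileup of 173 (148 to 201). The peak at n-TSgct5 (serine; chromosome 13, 22050580 to 22051470) reached 167 (143 to 194) and also had the highest fold among them, 17.8. At 163 stood the peaks of n-TRtcg5 and of n-TNgtt14 (asparagine; chromosome 5, 149228902 to 149229526), the latter with a fold of 17.3. The fifth, 154, lay over n-TNgtt13 (asparagine) and 964 bp from n-THgtg9 (histidine) in the chromosome 3 cluster, with a fold of 8.39. Among members at gene ends, the peak of n-TRacg2 beside Sacm1l reached 172 with a fold of 17.0, and that of n-TDgtc8 (aspartate) beside Lta4h reached 144 with a fold of 18.1, the highest of all members.

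By amino acid, the 386 genes fell into 19 amino acids with a peak at most of their genes, and cysteine. For those 19, 283 of 329 genes (86.0%) had a peak within 2 kb, and the share ran from 68.0% for lysine (17 of 25) to 100% for phenylalanine (7 of 7). In 9 of the 19 the share was 90% or more. They are alanine (20 of 21), arginine (22 of 23), glutamine (14 of 15), histidine (10 of 11), leucine (23 of 25), methionine (15 of 16), phenylalanine, proline (14 of 15) and tyrosine (9 of 10). In 9 others it was 75 to 90%, namely asparagine (11 of 13), aspartate (14 of 16), glutamate (16 of 20), glycine (23 of 28), isoleucine (12 of 16), serine (18 of 22), threonine (13 of 17), tryptophan (7 of 8) and valine (18 of 21). With so few genes each, their exact intervals overlap widely.

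Cysteine stood apart, with a peak at 7 of 57 genes (12.3%, 5.08 to 23.7%). Of its genes, 48 lie in 1 cluster on chromosome 6, where none had a peak. Outside that cluster 7 of 9 cysteine genes had one (77.8%, 40.0 to 97.2%), an interval that holds the share of the other amino acids. The 7 were n-TCgca57 on chromosome 6 (pileup 43, fold 10.9), n-TCgca52 on chromosome 17 (78, fold 10.7), n-TCgca47 on chromosome 9, where a peak of 8 lay 1489 bp away, and 4 genes on chromosome 11. On chromosome 11, n-TCgca54 and n-TCgca55 shared a gene-end peak of 109.

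Leaving out the peaks at protein-coding gene ends changed serine most among the amino acids with over 20 genes. Its share went from 18 of 22 (81.8%) to 10 of 22 (45.5%), whereas alanine went from 20 to 18 of 21 and leucine from 23 to 21 of 25. Arginine went from 22 to 16 of 23 and glycine from 23 to 18 of 28. For histidine and proline no gene depended on such a peak. The median pileup of members away from gene ends was 36 for cysteine and ran from 44.5 to 78.5 for the other amino acids, highest for tyrosine (78.5), aspartate (71) and alanine (70).

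**Figure D3:**
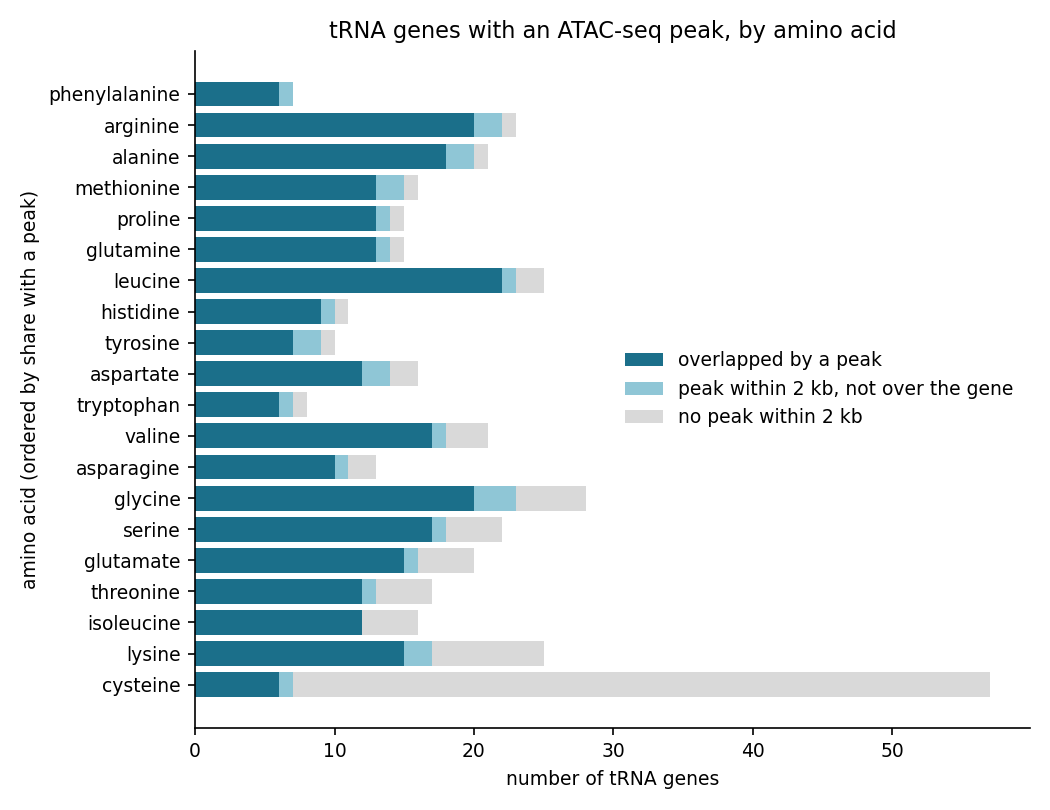
Number of tRNA genes of each amino acid that a peak overlapped, that had a peak within 2 kb but not over the gene, and that had none within 2 kb, with amino acids ordered from the highest share with a peak to the lowest. Most bars are nearly all with a peak, while 7 of the 57 cysteine genes at the bottom have one.

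Most of the genetic code was represented. Of 48 anticodons, 46 had a peak at 1 gene or more and 23 at every gene. The latter include alanine AGC (13 of 13), glutamine CTG (10 of 10), histidine GTG (10 of 10) and valine AAC (8 of 8). The 2 anticodons with no peak had 1 gene each, n-THatg1 on chromosome 1 (171669439 to 171669511) and n-TSgga1 on chromosome 11 (100538158 to 100538230). Glycine CCC had a peak at 2 of 6 genes, both at protein-coding gene ends, and 3 of its 4 genes without one lie in the chromosome 3 cluster. Threonine CGT had 2 of 4 and lysine CTT 16 of 23.

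For each amino acid, the gene whose nearest peak had the highest fold gives the upper end of its range. After n-TDgtc8, n-TSgct5, n-TNgtt14 and n-TRacg2 came n-TEttc7 (glutamate) at fold 17.0 and pileup 86, n-TIaat15 (isoleucine) with 16.0 and 93, and n-TMcat11 (methionine; at the end of Ilf2) with 15.5 and 148. Tryptophan (n-TWcca5), valine (n-TVaac1), alanine (n-TAagc17) and leucine (n-TLtaa3) reached folds of 14.6, 14.6, 14.5 and 13.8. Threonine (n-TTcgt5), glycine (n-TGgcc8) and lysine (n-TKctt26) reached 13, 12.5 and 12.3. At the lower end were glutamine (n-TQctg9; at the end of Rab11a) with 11.6, proline (n-TPagg6) with 11.5 and histidine (n-THgtg2) with 11.2. Below them came cysteine (n-TCgca57) with 10.9, phenylalanine (n-TFgaa3; at the end of Ndufs7) with 10.3 and tyrosine (n-TYgta1) with 9.87. The order of fold is not that of depth, as the peak of n-TYgta1 had a pileup of 130 and that of n-TVaac1 one of 49. Some of these peaks cover several genes. The peak of n-TYgta1 overlapped 4 tRNA genes, and its summit lay inside n-TYgta2, 366 bp from n-TYgta1. The summit of the n-TGgcc8 peak lay inside the alanine gene n-TAcgc8, 298 bp from n-TGgcc8. Near-identical gene copies can share reads, and the sources used here do not say how reads that match several places were treated. The value at any 1 copy is therefore uncertain.

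Joined at gaps of up to 50 kb, the tRNA genes formed 123 clusters, of which 92 were lone genes. A peak lay within 2 kb of a gene in 90 of the 123 (73.2%, 64.4 to 80.8%), and in 63 (51.2%) without gene-end peaks. Apart from the chromosome 6 cysteine cluster, all 30 clusters of 2 or more genes had a peak (exact interval 88.4 to 100%), and 230 of their 246 genes had one (93.5%, 89.7 to 96.2%). Of the lone genes, 60 of 92 had one (65.2%, 54.6 to 74.9%). Without the chromosome 6 cluster, the difference was 28.3 percentage points (Newcombe interval 18.6 to 38.7). Without gene-end peaks as well, it was 40.4 points (28.9 to 50.9), at 81.7 against 41.3%. With that cluster, none of whose genes had a peak, the clustered share was 230 of 294 (78.2%, 73.1 to 82.8%). This interval overlaps that of the lone genes. Without gene-end peaks, the clustered share was then 68.4%. A gene in a cluster can also lie within 2 kb of a neighbour's peak. For overlap of the gene itself, again without that cluster, the difference was 30.7 points (19.9 to 41.6), at 86.2 against 55.4%.

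The peaks themselves were about as deep in clusters as at lone genes. Away from gene ends, the median pileup was 53 (37 to 71) in 45 peaks at lone genes and 51.5 (45 to 57) in 94 peaks of clusters of 10 or more genes. The fold was higher at lone genes, 9.62 (7.63 to 11.5) against 6.35 (5.65 to 7.14), beside a local background of 5.03 (3.08 to 6.38) against 6.96 (6.21 to 9.26). Apart from the chromosome 6 cluster, the share also differed with place relative to protein-coding genes. Of the 33 tRNA genes inside a protein-coding gene 22 had a peak (66.7%, 48.2 to 82.0%). Of the 305 outside, apart from the chromosome 6 cluster, 268 had one (87.9%, 83.7 to 91.3%). With that cluster it was 268 of 353 outside, a share that lies within the interval of the genes inside. Among lone genes the shares were 8 of 19 inside (42.1%, 20.3 to 66.5%) and 52 of 73 outside (71.2%, 59.4 to 81.2%). Those intervals overlap.

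**Figure D4:**
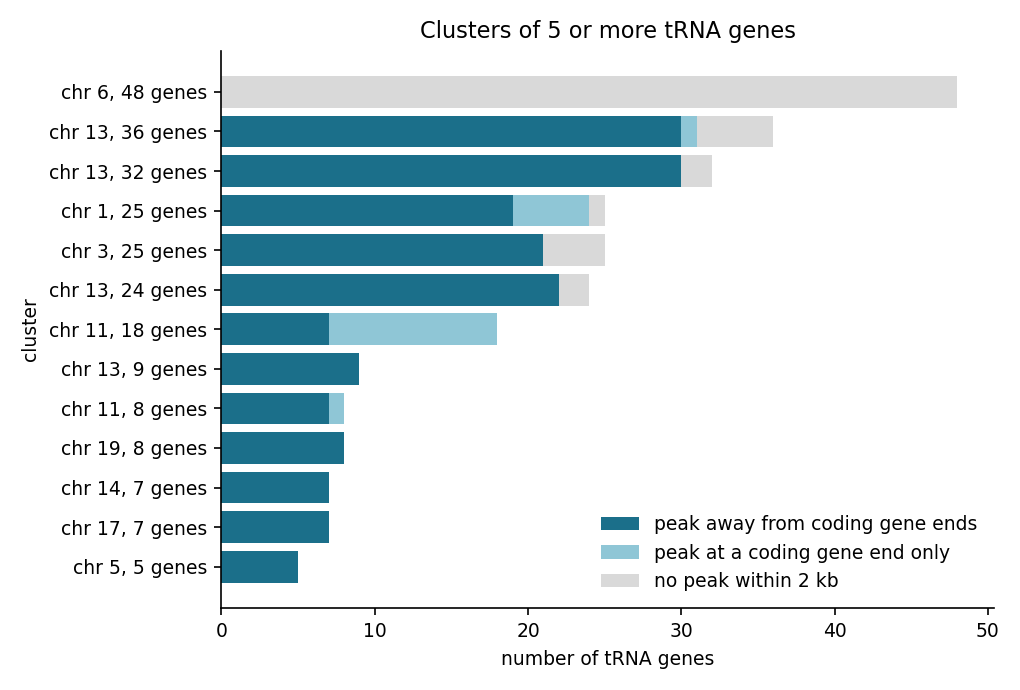
Number of tRNA genes with a peak away from protein-coding gene ends, with a gene-end peak alone and with no peak within 2 kb, in each cluster of 5 or more genes. The 48 cysteine genes of chromosome 6 have none, while the other clusters have a peak at most or all of their genes.

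The chromosome 6 cluster spans 229.667 kb (48133937 to 48363603) and holds 48 genes of 1 kind, cysteine GCA. None had a peak within 2 kb, where 0 of 48 allows a share of up to 6.25% by the limit of 3 counts and of up to 7.40% by the exact interval. The span was not empty of peaks. It held 2, with pileups of 17 and 14, which lay 8273 bp from n-TCgca40 and 4390 bp from n-TCgca48. That is 8.71 peaks per Mb, against 28.6 per Mb on chromosome 6. From its genes to the nearest peak the median gap was 40148 bp (4390 to 82261 bp). No protein-coding gene lies in the span. How reads that match several of these copies were mapped is not stated, so the lack of a peak does not show closed chromatin here. Without this cluster the share of tRNA genes with a peak was 85.8% (81.6 to 89.3%), and 70.7% without gene-end peaks.

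The largest cluster with peaks lies on chromosome 13 (23397060 to 23530419), with 36 genes for 15 amino acids and 21 peaks. A peak lay within 2 kb of 31 of its genes, 30 of them without gene-end peaks. The exceptions were n-TIaat3, n-TYgta6, n-TTagt6, n-TSgct4 and n-TRtcg1. Its deepest peak is the one of 173 over n-TAagc12 and n-TVaac2. A second cluster on chromosome 13 (21848022 to 22050767) holds 32 genes for 11 amino acids, of which 30 had a peak, all 30 away from gene ends, with n-TSaga6 and n-TKttt22 the exceptions. Its deepest peak is that of n-TSgct5 at its edge. Genes of the replication-dependent histones, which package new DNA in S phase, lie within 50 kb of both spans, 13 at the first and 11 at the second. The third cluster of that chromosome (21160785 to 21326789) had a peak at 22 of 24 genes, and the 2 without were the threonine genes n-TTcgt2 and n-TTcgt4. Its deepest peak, at 21169722 to 21170426, had a pileup of 109 and a fold of 6.72.

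The clusters of chromosomes 1 and 3 hold 25 genes each. On chromosome 1 (171033942 to 171111515), 24 had a peak, 19 of them away from gene ends, with n-TGgcc4 the exception. Its deepest peak (171063940 to 171066061, pileup 150, fold 7.73) overlapped 4 tRNA genes, n-TEctc5, n-TGtcc1, n-TDgtc3 and n-TLcag6, for glutamate, glycine, aspartate and leucine. It lies at a protein-coding gene end. On chromosome 3 (96322074 to 96501518), 21 had one, all away from gene ends. Its 4 exceptions were n-TEttc3 and the glycine CCC genes n-TGccc1, n-TGccc5 and n-TGccc6. The deepest peak there is the one of 154 over n-TNgtt13.

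On chromosome 11 (69037003 to 69125248), 18 of 18 genes had a peak but 7 had one away from gene ends. The span holds 6 protein-coding genes. Of its 9 peaks, 2 lay away from gene ends, and the deepest (69039976 to 69041856) had a pileup of 123 and a fold of 6.15. All 6 clusters of 5 to 9 genes had a peak at every gene, 44 genes in all. The largest of them lie on chromosome 13 (23270421 to 23317538, 9 genes, deepest peak 93), chromosome 11 (48818542 to 48857055, 8 genes, deepest peak 164 at a gene end) and chromosome 19 (12002236 to 12012338, 8 genes, 7 of them overlapped by a peak, 4 peaks, deepest 107).

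**Figure D5:**
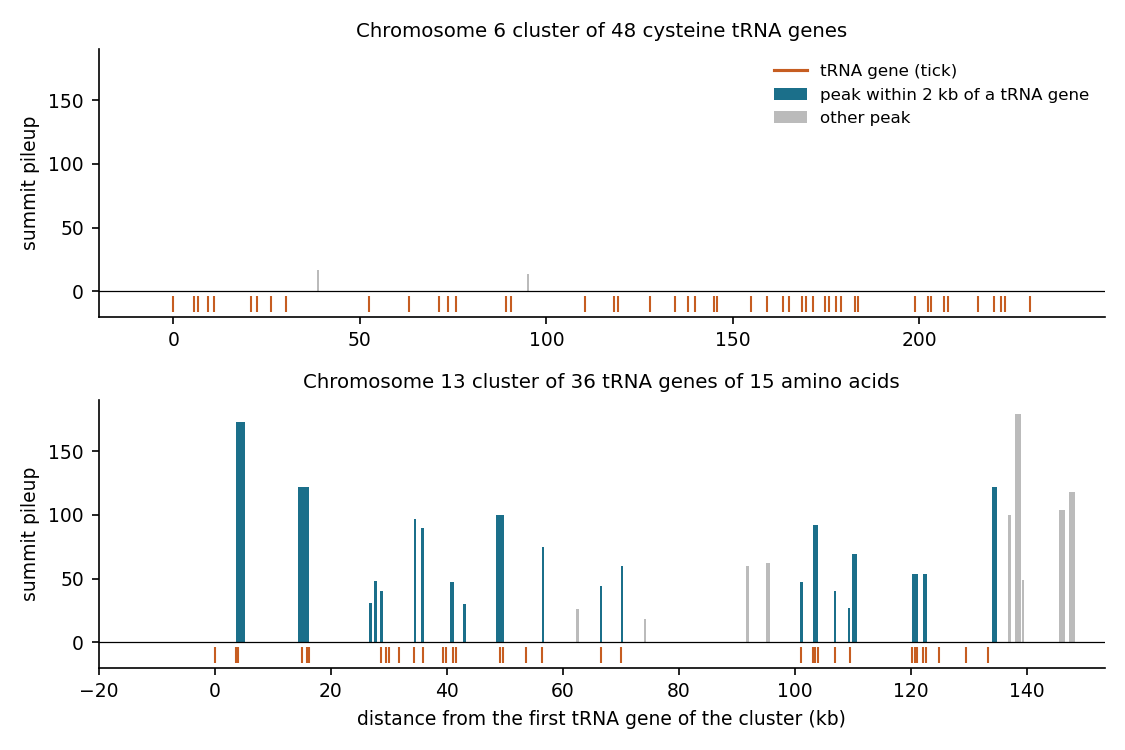
Summit pileup (reads or fragments) of peaks along the 48-gene cluster of chromosome 6 and the 36-gene cluster of chromosome 13, against distance (kb) from the first tRNA gene; bars are peaks, coloured where within 2 kb of a tRNA gene and grey elsewhere, and ticks are tRNA genes. The chromosome 6 cluster holds 2 low peaks, of 17 and 14, between its genes, whereas members of up to 173 stand over or beside most genes of chromosome 13.

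The protein-coding genes of the RNA polymerase III pathway had peaks at their own ends in nearly all cases. Of 55 genes listed, 53 had a gene-end peak (96.4%, 87.5 to 99.6%), against 67.6% of protein-coding genes. Their median pileup was 81 and median fold 11.7, beside 65 and 11.1 for all protein-coding genes with such a peak. All 18 polymerase subunits had one (median pileup 86.5), as did the 4 genes of TFIIIB (50.5), the 6 of the B box-binding factor TFIIIC (63.5) and Gtf3a, which is the 5S rRNA factor TFIIIA (72). Brf1, the TFIIIB subunit used at tRNA genes, reached 186, the highest of the list, and Maf1, the repressor of the polymerase, reached 162. All 6 splicing genes had one, as did Xpot, the tRNA export receptor (161), and 12 of 13 genes of end processing. The highest folds were at Polr3k (20, pileup 125), Elac2, which trims the tRNA 3′ end (19.3, 130), Snapc4 (18.7, 88), Polr3f (18.7, 146) and Clp1 (17.8, 97).

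The 2 without a gene-end peak were Snapc3, a subunit of the factor that serves snRNA promoters, and Rpp40, an RNase P subunit that trims the tRNA 5′ end. Both had a peak inside the gene body, with pileups of 109 and 150. The peak at the end of Polr3e (pileup 88, fold 11.0), a polymerase III subunit gene, is also a member, since the leucine gene n-TLaag4 lies there. For 71 of its 82 bases this tRNA gene lies inside the promoter window of Polr3e.

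Other RNA polymerase III transcripts had peaks as well. Of 11 genes on a chosen list, 10 had a peak within 2 kb and 9 were overlapped by one. Among RefSeq genes of all kinds these shares were 55.7% and 49%. Among small nucleolar RNA, small nuclear RNA and microRNA genes together they were 25.2% and 7.46%. The pileup was 182 at Rn7s2 and 175 at Rn7s1, the RNA of the signal recognition particle, 116 at Rmrp (RNase MRP RNA), 104 at Bc1, 97 at Rn7sk (7SK RNA) and 84 at Rpph1 (RNase P RNA). Vaultrc5, a vault RNA, had 54, and the Y RNAs Rny1 and Rny3 had 45 and 23. At Rn5s (5S rRNA) the nearest peak, of 44, lay 1548 bp away. Rnu6 had no peak within 2 kb. For 4 of the 10 the nearest peak was at a protein-coding gene end. The tRNA members, at 8 to 173, span nearly the same range of pileups.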

How the data were processed

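ATAC-seq peaks of 1 untreated library were analysed. Nuclei were treated with Tn5 and libraries amplified by PCR, per the labels' protocols. Per the submitters' processing notes, the builds were mm10 and GRCm38.p6, and the tools included MACS2 2.2.6 (a peak caller), Bowtie2 2.3.4.1 (an aligner) and SAMtools 1.9. The sources do not state filters on duplicates or on reads with several matches, or a shift for Tn5, so values at repeated genes are uncertain. The deposited score equals 10 times the authors' -log10 q, rounded down. The deposited -log10 p and -log10 q came from the authors' peak caller, with a lowest -log10 q of 1.3. In the deposited fold, the authors divided the summit pileup by the local background, each raised by 1. The total depth is unknown. Summit pileups were recovered from fold and -log10 p, and 77626 of 77629 came out whole (tolerance 0.01).

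Genes, biotypes and promoter sequences came from RefSeq tables of GRCm38.p6, which give no strand for genes. Of 391 tRNA genes named for chromosomes 1 to 19, 5 lie on scaffolds and were left out. A peak counted as a member if its interval lay within 2 kb of a tRNA gene, and as at a gene end if within 1 kb of either annotated end of a protein-coding gene. Shares have exact Clopper-Pearson intervals, medians order-statistic intervals, pileups exact Poisson intervals and differences of shares Newcombe intervals, all at 95%. They cover counting error only, and no p-value was computed. Python 3.11.15, pandas 2.3.3, scipy 1.17.1 and statsmodels 0.14.6 were used, and the steps were tested on simulated data. Named genes are, for each amino acid, the gene with the highest-fold nearest peak, the 10 largest clusters with their deepest peak, the 5 deepest and 5 highest-fold members away from gene ends, those nearest the limit, and the 5 highest-fold and the peakless pathway genes. Others, such as those with printed sequences, genes without a peak in large clusters and the cysteine genes, were named after their values were seen. The members and lists were chosen with earlier results of these data known.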

Additional observations from a re-analysis of the deposited data

Results flagged for a closer look

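Chromosome X, which lies outside the comparisons, holds 17 tRNA genes. A peak lay within 2 kb of 4 of them (23.5%, exact interval 6.81 to 49.9%), and all 4 were overlapped by a peak of their own. Apart from n-TPtgg3, the genes without a peak were all alanine genes in 1 stretch, from n-TAtgc2 (start 136357602) to n-TAtgc1 (start 136590365). The low share thus rests mostly on that stretch. The 4 peaks had pileups of 11 to 49 with a median of 14, and 3 of the 4 lay away from protein-coding gene ends. This was singled out because it is signal in data that the comparisons do not use.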

How the results depend on the processing

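The share of tRNA genes with a peak within 2 kb, 75.1%, was 68.1% when the peak had to overlap the gene, 81.6% at 5 kb, 61.9% without peaks at protein-coding gene ends, 85.8% without the chromosome 6 cluster and 69.8% without chromosome 13. The share of summits inside or within 150 bp, 56.5%, was 72.0% with each peak counted once at its nearest gene. Of 157 recomputed values, 142 moved by less than their interval (counts, by less than 1.5 times) and 15 moved further, of which 9 were shares of single amino acids. The ratio of the members' median fold to that of other peaks away from gene ends, 1.05, fell below 1 in 5 settings. It was 0.920 at a -log10 q of 5 or more, 0.980 at 5 kb, 0.741 at a pileup of 20 or more, and 0.991 both without peaks over promoter windows and without chromosome 13. The exclusion of chromosome 13 and of promoter windows, the pileup minimum applied to both kinds of peak, the single count of each peak, the inclusion of gene-end peaks among the summit distances and the counting of unplaced genes were chosen after seeing the data. No tRNA gene symbol marked a pseudogene, so that planned exclusion was not run. No paired analysis was possible because each group has 1 sample. Depth limits the low end, since no peak of the list had a pileup under 6.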

Other observations

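The number at the end of a RefSeq tRNA symbol went with the presence of a peak, a pattern chosen after the values were seen. Among the 30 anticodons with 5 or more genes outside the chromosome 6 cluster (288 genes), genes were split by the rank of that number within the anticodon. No peak lay within 2 kb of 29 of 85 genes in the lowest set (34.1%, exact interval 24.2 to 45.2%), of 9 of 96 in the middle set (9.38%) and of 4 of 107 in the highest set (3.74%, 1.03 to 9.30%). Where a peak was present, its median pileup was 57.5, 68 and 76 in the same order. How the symbols were numbered is not stated in the table. Outside the chromosome 6 cluster, lone genes also had a peak less often than clustered genes (65.2 against 93.5%). The symbol number and lone position were not separated, so these patterns may rest on the same genes.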
